A study of Mus musculus with 6 samples.

Results

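Transcripts of genes that mark bile duct epithelium and liver progenitor cells were followed in mouse liver made to express viral oncoproteins. The set held 10 genes chosen by name: Cd24a, Prom1, Krt7, Krt19, Krt8, Krt18, Epcam, Sox9, Cldn7 and Spp1. Every probe set carrying one of these symbols in the platform annotation was taken. This gave 16 probe sets for 9 of the genes, of 45265 probe sets on both array designs, with 14 on the 430A design and 2 on the 430B design. No probe set was matched to Spp1 by this rule, and its expression was not analysed here.

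Each of 3 genotypes gave 1 array of each design, so there were 6 arrays and no replicates. All mice were males of a hybrid B6SJL background, 32 to 37 days old, and all of them, WT included, received doxycycline (25 µg/ml) in water with 2.5% sucrose for 4 days. WT livers came from mice with no transgene. LT livers came from ApoErtTA:TRE2-TAg mice, in which doxycycline induced the SV40 large T (LT) and small t (st) oncoproteins. 17kT livers came from mice also labelled ApoErtTA:TRE2-TAg, in whose genotype label the second transgene is written TRE2-TA, and in which 17kT, a short form of large T, was induced with st. WT mice lacked the ApoErtTA driver, so its effect and that of the oncoproteins cannot be told apart. The rtTA protein is a transcriptional activator that works in the presence of doxycycline, and TRE2 is a promoter that it turns on. The labels do not say how many livers went into an RNA.

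Cholangiocytes, the cells that line bile ducts, and hepatocytes arise from a common fetal progenitor, the hepatoblast. Adult hepatocytes build their cytoskeleton from the simple keratin pair Krt8 and Krt18, whereas Krt7 and Krt19 mark duct cells. In injured liver, cells with duct markers such as Epcam, Sox9, Prom1 and Cd24a expand around the portal tract and are called progenitor or oval cells. In bulk liver RNA, more cells of a type and more RNA per cell cannot be told apart.

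Signals are the authors' intensities on a linear scale. For ratios they were raised to a floor, which was the median signal per design (90.4 for 430A, 140.5 for 430B), and a probe set was measured in a comparison when 1 or both of the arrays compared exceeded the floor. A gene was called higher or lower at a ratio of at least 2-fold, or 1 on the log2 scale. A value at the floor on 1 array gives a bound, written "at least". With 1 array per genotype no test was possible, and the difference between genotypes has no replicate check. The technical SD of a log2 ratio was 0.23 for LT over WT, 0.28 for 17kT over WT and 0.26 for LT over 17kT as read from 100 probe sets that the designs share. Among pairs of different probe sets for 1 gene it was 0.57, 0.55 and 0.47. These SDs do not include a median offset between the designs (430A minus 430B) of -0.25, 0.19 and -0.36 in the same order.

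Most of the defining duct markers were dim in every liver. Of the 9 genes, 4 (Krt7, Krt19, Epcam and Sox9) stayed below the floor on all 3 arrays with the probe set that represented the gene, 2 (Cd24a and Cldn7) exceeded it on 1 array, 1 (Prom1) on 2 arrays and 2 (Krt8 and Krt18) on all 3. The bright pair is the one that hepatocytes also express. No signal above the floor was read for the duct-defining genes Krt7, Krt19 and Sox9, so the label of bile duct markers rests on the remaining genes.

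**Figure D1:**
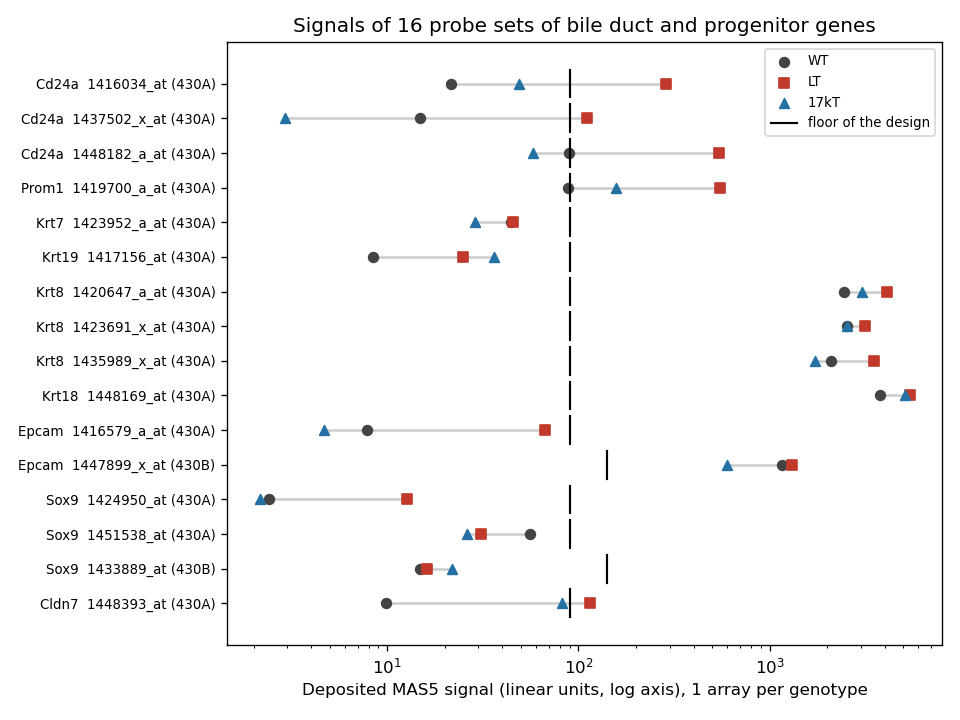
Deposited signal (linear units on a log axis) of each of the 16 probe sets on the WT, LT and 17kT arrays, 1 point per array, with the floor of the design as a black tick. Only the Krt8 and Krt18 probe sets and the 430B probe set of Epcam lie above the floor on all 3 arrays, and the LT points of Cd24a and Prom1 stand apart to the right.

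In LT liver Cd24a and Prom1 were higher than in WT, and no gene of the set was lower. Of 5 genes measured in LT over WT, 2 were higher and 0 lower at 2-fold, where 11.1% of all 12775 measured genes were higher and 9.01% lower. Of these 5, Cd24a, Prom1 and Cldn7 were below the floor in WT and were measured only through LT, so that these 3 could not have come out lower, and the count of lower genes says little. Of the remaining 2, Krt8 and Krt18, 0 passed the rule. In 17kT over WT 3 genes were measured and 0 passed the rule in either direction, where 9.97% of all measured genes were higher and 8.64% lower. Prom1, 1 of these 3, was measured only through 17kT. In LT over 17kT 2 of 5 genes were higher and 0 lower, where 4.47% of measured genes were higher and 4.23% lower. Cd24a and Cldn7 were measured only through LT and could not have been lower, and of the 3 genes above the floor on both arrays Prom1 alone was higher. These 3 comparisons share their arrays pairwise and are not independent.

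Cd24a encodes a small, heavily glycosylated protein tethered to the cell surface by a lipid anchor, and it marks progenitor cells and also neutrophils and B cells. Its probe set 1448182_a_at, which represented the gene, read 89.6 in WT, 545.4 in LT and 57.6 in 17kT. Probe set 1416034_at read 21.6 in WT, 285.6 in LT and 48.7 in 17kT. Probe set 1437502_x_at, of a kind that can bind several transcripts, read 14.8 in WT, 110.7 in LT and 2.94 in 17kT. On all 3 probe sets LT was the only array above the floor. The bound for LT against WT was at least 6.03-fold, at least 3.16-fold and at least 1.22-fold in that order, and the same bounds held against 17kT, since both other arrays were at the floor. The third of these bounds does not reach the rule, because its LT signal lay just above the floor.

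Prom1 encodes prominin, a cholesterol-binding protein of membrane protrusions that is widely used as a progenitor surface marker. Its single probe set, 1419700_a_at, read 88.4 in WT, 550.1 in LT and 157.9 in 17kT. LT was highest, 17kT lay between, and WT was just below the floor. LT was at least 6.09-fold higher than WT and 3.48-fold higher than 17kT. In 17kT over WT the log2 ratio was at least 0.81, which is under the rule, and it was 1.03 when the arrays were scaled to the hybridisation controls. Among 482 other genes of the 430A design above the floor on the same arrays, the pattern closest to that of Prom1 over the 3 arrays was that of Sult2a2, a sulfotransferase gene with close relatives (distance 0.18 in log2 units, signals 51.4 in WT, 520.7 in LT and 178.0 in 17kT). The next was Oxct1, which encodes an enzyme of ketone body use (distance 0.19, signals 5.60, 485.7 and 167.4). WT was at the floor for Prom1 and for all of these genes, so the distance rests on the LT and 17kT signals. Differences among WT signals below the floor did not enter it. With 3 arrays such closeness is a description only. Cd24a, above the floor on 1 array, was not compared in this way.

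Epcam, an epithelial adhesion molecule that defines duct and progenitor cells in liver, gave readings that differed between its probe sets. On 430A, 1416579_a_at read 7.8 in WT, 66.5 in LT and 4.70 in 17kT, all below the floor. On 430B, 1447899_x_at read 1167 in WT, 1310 in LT and 597 in 17kT, all above it. On that probe set LT was 2.20-fold higher than 17kT, the log2 ratio of 17kT over WT was -0.97, and that of LT over WT was 0.17, which ran from -0.31 to 0.47 under 6 scalings of the arrays. When the floor was lowered to the 25th percentile, the 430A probe set gave a log2 ratio of at least 1.31 for LT over WT. Probe sets ending in _x_at can bind transcripts of other genes, and what this one bound here was not tested.

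Cldn7, a claudin of tight junctions in duct epithelium, read 9.9 in WT, 114.5 in LT and 81.9 in 17kT on 1448393_at. LT alone exceeded the floor, by little, and its log2 ratio over WT and over 17kT was at least 0.34. Both transgenic arrays read above WT. With the lower floor the bounds were at least 2.09 for LT over WT and at least 1.61 for 17kT over WT, so that the size of this difference depends on where the floor is put.

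**Figure D2:**
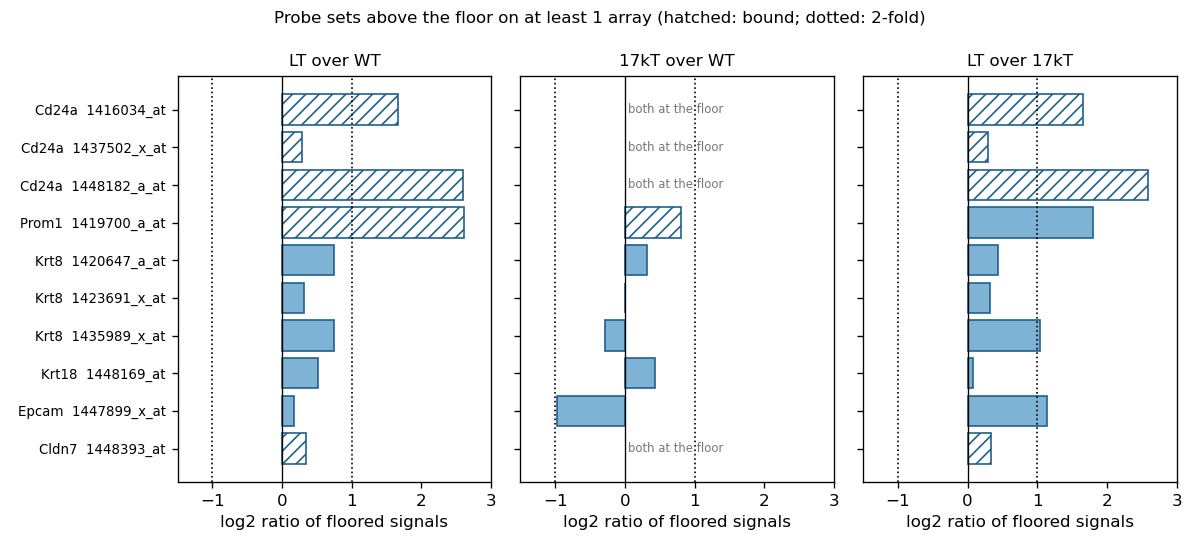
Log2 ratio of floored signals for the 10 probe sets above the floor on at least 1 array, in the 3 comparisons; hatched bars are bounds with 1 array at the floor, and dotted lines mark 2-fold. Cd24a and Prom1 pass the line in LT over WT (at least 2.59 and at least 2.61), and no bar passes it in 17kT over WT.

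The keratins divided by brightness. Keratin filaments are built from pairs of a type I and a type II chain, and Krt8 (type II) pairs with Krt18 (type I) in simple epithelia. Krt8 read 2449 in WT, 4108 in LT and 3040 in 17kT on 1420647_a_at. On 1423691_x_at it read 2536, 3165 and 2541, and on 1435989_x_at 2093, 3517 and 1717. LT was highest on all 3 probe sets, and 17kT lay above WT on the first, level with it on the second and below it on the third. The log2 ratios of LT over WT were 0.75, 0.32 and 0.75, none past the rule. Those of 17kT over WT were 0.31, 0.003 and -0.29, a spread similar in size to the values themselves. In LT over 17kT the ratios were 0.43, 0.32 and 1.03, the last 2.05-fold.

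Krt18 read 3759 in WT, 5389 in LT and 5090 in 17kT on 1448169_at. Both transgenic arrays were above WT, with log2 ratios of 0.52 for LT and 0.44 for 17kT, and LT and 17kT differed by 0.08, which turned to -0.21 under another scaling. Neither keratin gene passed 2-fold against WT under 5 of the 6 scalings. Scaling to the hybridisation controls gave 1.25 for Krt8 and 1.02 for Krt18 in LT, and 0.89 and 1.02 in 17kT, and that scaling moved the median of all genes to 0.41 and 0.33.

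The duct keratins stayed dim. Krt7 (type II) read 44.5 in WT, 45.5 in LT and 28.8 in 17kT. Krt19 (type I) read 8.4, 25.0 and 36.0. All 6 readings were below the floor, so no order is given. Sox9, the transcription factor that marks duct cells and the earliest ductal plate, was also below the floor on every array. Its probe set 1451538_at read 55.5 in WT, 31.0 in LT and 26.3 in 17kT, 1424950_at read 2.4, 12.7 and 2.15, and the 430B probe set 1433889_at read 14.9, 16.1 and 21.9. These probe sets did not share an order among the genotypes.

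Counted by probe set, 3 of 10 measured ones were higher and 0 lower in LT over WT, where 10.6% of all measured probe sets were higher and 8.2% lower. All 3 came from the 5 probe sets that were below the floor in WT and could only be higher, and 0 of the 5 above the floor on both arrays passed the rule. In 17kT over WT 0 of 6 passed the rule, beside 9.47% higher and 7.69% lower. In LT over 17kT 5 of 10 were higher and 0 lower, beside 4.24% and 3.99%. The 5 were 2 probe sets of Cd24a and 1 each of Prom1, Krt8 and Epcam, so that they stand for 4 genes. Of these 5 calls, 2 (both Cd24a) came from the 4 probe sets that could only be higher, and 3 from the 6 above the floor on both arrays. Of these 3, the calls of Krt8 and Epcam rest on _x_at probe sets and depended on the scaling. Under 6 scalings their lowest log2 ratios were 0.95 and 0.70, under the rule, whereas the lowest for Prom1 was 1.72.

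RefSeq promoter windows (GRCm38.p6, 250 bases before to 50 after the start) were listed for 7 of the 10 genes. The windows of Prom1, which was higher in LT, and of the neighbouring pair Krt8 and Krt18, which lie next to each other on chromosome 15, are shown so that the differing genes can be set side by side. Capitals mark matches, on either strand, to the letters searched. These were TTTCCCGC, TTTCGCGC, TTTGCCGC or TTTGGCGC for E2F, TGGGAA for RBPJ (the DNA-binding partner of Notch), GGAATG for TEAD (the partner of YAP), TGANTCA for AP-1 and GGGCGG for the GC box.
Prom1 (chr5:44101687-44101986, minus strand): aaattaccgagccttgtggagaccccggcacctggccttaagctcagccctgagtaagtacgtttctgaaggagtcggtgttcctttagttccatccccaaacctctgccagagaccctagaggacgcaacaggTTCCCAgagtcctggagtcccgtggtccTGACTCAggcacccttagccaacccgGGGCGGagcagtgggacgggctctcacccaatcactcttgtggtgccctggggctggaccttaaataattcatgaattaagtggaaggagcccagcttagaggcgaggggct
Krt8 (chr15:102004293-102004592, minus strand): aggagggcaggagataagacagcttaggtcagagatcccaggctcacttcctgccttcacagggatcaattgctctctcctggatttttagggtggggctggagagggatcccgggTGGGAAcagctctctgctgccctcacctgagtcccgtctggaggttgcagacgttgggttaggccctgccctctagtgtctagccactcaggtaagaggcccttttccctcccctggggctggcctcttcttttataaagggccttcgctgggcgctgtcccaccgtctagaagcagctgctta
Krt18 (chr15:102027966-102028265, plus strand): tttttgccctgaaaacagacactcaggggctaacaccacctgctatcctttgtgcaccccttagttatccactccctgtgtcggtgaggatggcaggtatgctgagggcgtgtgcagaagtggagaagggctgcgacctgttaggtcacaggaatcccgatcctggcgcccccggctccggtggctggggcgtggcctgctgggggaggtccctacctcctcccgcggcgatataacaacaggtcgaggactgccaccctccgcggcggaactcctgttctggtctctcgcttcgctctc

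The Prom1 window held 1 RBPJ match at -116, 1 AP-1 match at -88 and 1 GC box at -62 from the start. That of Krt8 held 1 RBPJ match at -134, and that of Krt18 held none of the 5 motifs. The second Prom1 window in the table held 1 AP-1 match. Over 27025 promoters, the first listed for each gene, 2.32% held an E2F match, 25.5% RBPJ, 14.6% TEAD, 7.93% AP-1 and 35.9% a GC box. None of the windows of the 7 genes held an E2F match. A match is a description of letters and shows no binding.

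Other genes of ducts and progenitor cells, from a list without the 10, were next counted by the same rule, with the shares of all measured genes given above as the background for this and the following lists. Of 20 measured in LT over WT, 9 were higher and 0 lower, with a median log2 ratio of 0.73. Of 19 in 17kT over WT, 8 were higher and 1 lower (median 0.33), and of 21 in LT over 17kT, 5 were higher and 0 lower (median 0.50). Part of this is set by the floor, since 4 of the 20, 3 of the 19 and 4 of the 21 could only be higher. Where neither array was at the floor, 6 of 16 were higher and 0 lower in LT over WT (median 0.46), 6 of 14 higher and 1 lower in 17kT over WT (median 0.30), and 4 of 16 higher and 0 lower in LT over 17kT (median 0.14). The median in LT over WT became 0.19 with a floor at the 25th percentile and 0.24 with scaling to the probe sets shared by the designs. Several of these genes were included for their fetal liver expression, and this list was chosen with earlier results known.

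Bicc1, an RNA-binding protein of tubular epithelia, read 930 in WT, 9596 in LT and 3160 in 17kT. LT was 10.3-fold and 17kT 3.40-fold higher than WT, and its 430A probe set gave log2 ratios of at least 3.35 and at least 1.96. Alcam, a cell adhesion molecule of fetal hepatic and duct cells, read 990.3, 4168 and 2354, with log2 ratios of 2.07 and 1.25. Of its other probe sets, 1426300_at and 1437467_at gave 1.44 and 3.18 in LT over WT and 1.53 and 1.82 in 17kT over WT, and 1426301_at, below the floor in WT, gave at least 1.39 and at least 1.70. Both genes were highest in LT and lowest in WT on these main probe sets, which are of the 430B design. On the 430A probe sets of Alcam 17kT read above LT. The signals were 344.8 in 17kT and 323.9 in LT on 1426300_at, and 292.7 and 237.6 on 1426301_at.

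Sox4, a relative of Sox9 that acts with it in duct formation, read 43.8 in WT, 661.3 in LT and 41.7 in 17kT on 1433575_at. LT was at least 7.32-fold higher than either. Of its other 7 probe sets, 6 were below the floor everywhere and 1455867_at read 101.1, 18.1 and 55.8, so that the difference rests on 1 probe set. Krt23, a type I keratin induced in injured liver, read 62.9, 191.6 and 246.3, at least 2.12-fold higher in LT and at least 2.72-fold in 17kT. The remaining genes higher in both transgenic livers were Afp, Gpc3, Igf2bp3, the epithelial transcription factor gene Elf3 (log2 ratios 1.62 and 1.12) and the anion exchanger gene Slc4a2 (1.18 and 1.11). Igf2bp3 was 4.07-fold higher in 17kT on 1433731_at. Its probe sets 1422610_s_at, 1422611_s_at and 1433732_x_at gave smaller log2 ratios of 0.70, 1.06 and 0.75 there. Afp was 34.6-fold and Gpc3 4.81-fold higher in LT than in 17kT. In 17kT over WT, Afp passed the rule only on 1416646_at (at least 2.47-fold). Its probe set 1416645_a_at gave a log2 ratio of at least 0.76, and its remaining probe sets were below the floor in WT and 17kT. Gpc3 passed narrowly in 17kT over WT, with a log2 ratio of 1.03 and a WT signal of 91.5, just above the floor.

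**Figure D3:**
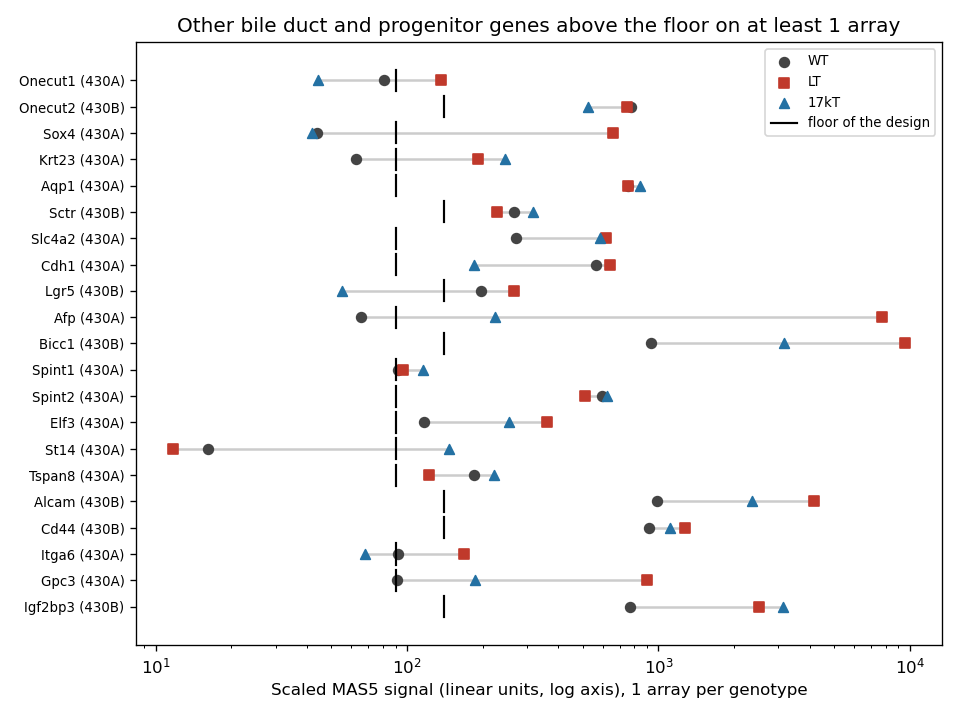
Scaled signal (linear units on a log axis) on the 3 arrays for each of the other bile duct and progenitor genes above the floor on at least 1 array, with the floor of the design as a black tick. On the probe set shown for each gene, Bicc1, Alcam, Afp and Gpc3 run in the order WT, 17kT, LT, while Cdh1 is lowest in 17kT.

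Some genes of mature duct functions in that list, picked after their values were seen, were dim or not past the rule, unlike Slc4a2. The chloride channel gene Cftr, the bile acid importer gene Slc10a2, the mucin gene Muc1 and the cilium gene Pkhd1 were below the floor on every array. The water channel gene Aqp1 read 756.7 in WT, 755.4 in LT and 843.7 in 17kT. The secretin receptor gene Sctr read 266.1, 228.0 and 316.1, with WT between the transgenic arrays.

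Among other keratins, 11 were measured in LT over WT, of which 1 (Krt23) was higher and 0 were lower, and the same count held in 17kT over WT. Krt20, another simple keratin, read 51.4 in WT, 140.0 in LT and 37.4 in 17kT. Genes of filament partners and intermediate filaments had 3 of 11 members higher in LT over WT and 0 lower. These were the lamin gene Lmna (4.44-fold), the periplakin gene Ppl (2.29-fold) and Vim (2.05-fold), which encodes vimentin, the filament of mesenchymal cells. In 17kT over WT Lmna (3.85-fold) and Ppl (2.67-fold) were higher and Vim was not past the rule. In LT over 17kT, Vim (2.18-fold) and Krtcap2 (2.14-fold) were higher.

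Other claudins were counted by the same rule. Of 7 measured in LT over WT, 0 were higher and 1 lower, a count near the share of 9.01% lower over all genes. Of 7 in 17kT over WT, 0 were higher and 3 lower, beside 8.64% lower over all genes. The medians were -0.63 and -0.97, and they became -0.13 and -0.23 with scaling to the hybridisation controls. Cldn2, a pore-forming claudin of hepatocytes, read 1305 in WT, 278.9 in LT and 160.7 in 17kT, 4.68-fold and 8.12-fold lower. Cldn1 and Cldn12 were 3.34-fold and 3.10-fold lower in 17kT, while 1450014_at, a dimmer probe set of Cldn1, gave a log2 ratio of -0.37. WT was highest for all 3 of these claudins.

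Genes of epithelial junctions had 1 of 20 members higher and 2 lower in LT over WT, and 2 higher and 4 lower in 17kT over WT. The connexin genes Gjb2 and Gjb1, whose products form the gap junctions of hepatocytes, were 3.26-fold and 2.95-fold lower in LT and 3.28-fold and 4.26-fold lower in 17kT. The junctional adhesion molecule gene F11r was 2.69-fold higher in LT and 4.18-fold in 17kT, and Tjp1, a scaffold of tight junctions, was 2.19-fold higher in 17kT.

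The Notch pathway, which directs hepatoblasts toward the duct fate, had 1 of 18 members higher and 1 lower in LT over WT, and 1 of 17 higher and 1 lower in 17kT over WT. These counts are no larger than the shares over all genes. The receptor gene Notch2 was 2.14-fold higher in LT, the receptor protease gene Adam10 was 2.35-fold higher in 17kT, and Psen2, of the gamma-secretase complex, was 4.72-fold and 8.28-fold lower. The target gene Hes1 read 114.4 in WT, 178.7 in LT and 172.4 in 17kT, under the rule in both. The ligand gene Jag1 read 236.0, 352.1 and 75.9 and was at least 2.51-fold higher in LT than in 17kT.

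Hippo pathway genes and targets of YAP, a coactivator tied to duct identity, had 5 of 19 members higher and 2 lower in LT over WT, and 4 of 19 higher and 1 lower in 17kT over WT. Amotl2, a target that restrains YAP, was 3.10-fold higher in LT and 3.43-fold in 17kT. Ajuba was at least 2.98-fold and at least 2.86-fold higher, and Tead2 at least 2.35-fold in LT. Amot was 2.14-fold higher in 17kT on 1454890_at, but 1425907_s_at, also above the floor on every array, gave a log2 ratio of -0.64. The target gene Ccn1 was at least 2.24-fold lower in both on 1438133_a_at. Its direction in 17kT turned with the probe set, since 1416039_x_at gave 0.09 and 1442340_x_at at least 0.83, and in LT 1416039_x_at gave -0.39. Amotl1 was 2.06-fold lower in LT. The remaining genes counted as higher were Axl (2.09-fold) and Tead1 (2.01-fold) in LT, and Ccn2 (2.13-fold) in 17kT. Tead1 pointed the other way in LT on 1423434_at, lower by at least 0.66 on the log2 scale.

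Growth signals of progenitor cells and their receptors had 1 of 19 members higher and 2 lower in LT over WT, and 1 of 20 higher and 2 lower in 17kT over WT, near or below the shares over all genes. The higher one was Tnfrsf12a, the receptor for the progenitor mitogen TWEAK, which read 10.1 in WT, 920.9 in LT and 1801 in 17kT. Both transgenic arrays were above the floor and WT below it, and the bound in LT was at least 10.2-fold. The LIF receptor gene Lifr was 10.3-fold and 5.82-fold lower on 1425107_a_at. On 1454984_at, also above the floor on every array, its log2 ratios were smaller, at -1.38 in LT and -0.76 in 17kT. The EGF receptor gene Egfr was 3.24-fold and 5.35-fold lower. The HGF receptor gene Met was 2.45-fold higher in LT than in 17kT. Of 10 measured receptors and proteases of osteopontin, the product of Spp1, 0 passed the rule in LT over WT. In 17kT over WT the integrin gene Itgb3 was at least 2.76-fold higher and Itga8 3.21-fold lower, and Itgb3 was 2.14-fold lower in LT than in 17kT.

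**Figure D4:**
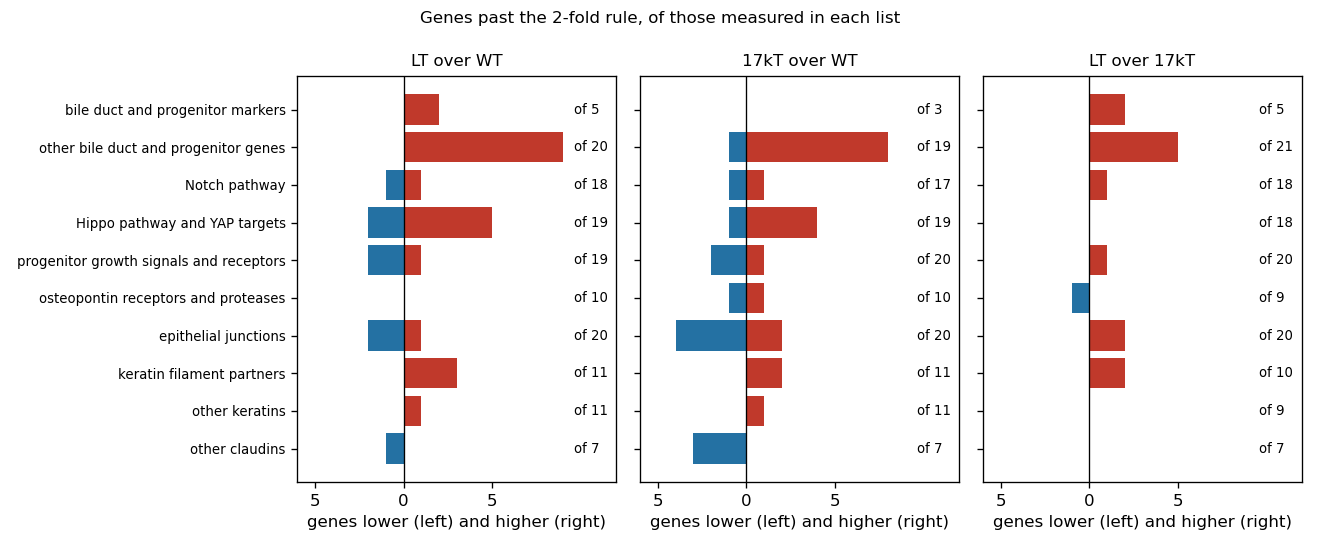
Numbers of genes at least 2-fold higher (right, red) and lower (left, blue) in each list for the 3 comparisons, with the number measured at the right of each bar. The other bile duct and progenitor genes have the longest bars to the right (9 of 20 in LT over WT and 8 of 19 in 17kT over WT), and other claudins have bars to the left only.

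Markers of further cell types were read beside these genes. Neutrophils, which carry Cd24a, had 2 of 8 markers above the floor in WT, 6 in LT and 4 in 17kT, with summed signals of 1315, 2791 and 2132. Lcn2 made up most of each sum, with 749.0, 1858 and 1542. S100a8 was at least 2.53-fold and Lcn2 2.48-fold higher in LT than in WT. Lcn2 was 2.06-fold higher in 17kT than in WT, and S100a8 was at least 2.53-fold higher in LT than in 17kT. Ngp, above the floor on every array, read 190.7 in WT, 184.0 in LT and 132.2 in 17kT, and Camp was below the floor everywhere. B cell and plasma cell markers, also of cells that carry Cd24a, had 3, 3 and 4 of 6 above the floor with sums of 1245, 937.3 and 1195, and Cd79b was below the floor everywhere. Ighm was 2.52-fold lower in LT and 2.95-fold lower in 17kT, while another of its probe sets was just above the floor in LT and gave at least 0.10 on the log2 scale against WT. The part of these cells in the Cd24a values was not tested.

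The defining markers of hepatocytes were all 7 above the floor in each liver, with summed signals of 179816 in WT, 118146 in LT and 87491 in 17kT. The largest part of each sum was Ttr on 430B, with 83346, 57393 and 36487. Of the 7 genes, 2 were lower and 0 higher in LT over WT, and 4 lower and 0 higher in 17kT over WT. Cyp2e1 was 30.2-fold and 14.4-fold lower and Tat 3.05-fold and 2.31-fold lower, and Cyp2e1 was 2.09-fold lower in LT than in 17kT. Alb, Cps1 and Hnf4a were not past the rule. Their log2 ratios were -0.25, -0.05 and -0.19 in LT over WT, and -0.63, -0.32 and -0.28 in 17kT over WT. Markers of dividing cells summed to 831.0, 8813 and 10879, with all 5 higher in both transgenic livers. Top2a was 14.9-fold and 19.8-fold higher and Ccnb2 13.8-fold and 16.7-fold. Between LT and 17kT 0 of these 5 markers passed the rule, with a median log2 ratio of -0.34 for LT over 17kT.

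Kupffer and macrophage markers had sums of 12904 in WT, 11497 in LT and 13534 in 17kT over 9 genes, and Cd163 was at least 2.33-fold lower in LT than in 17kT. Stellate and matrix markers summed to 6071, 4194 and 6298 with Pdgfrb below the floor everywhere. Lrat was 2.18-fold lower in LT than in WT, and Dcn was 2.40-fold lower in LT than in 17kT. Endothelial markers summed to 1974, 1290 and 1514. Tek (2.31-fold) and Cdh5 (2.27-fold) were lower in LT, and in 17kT Cdh5 was 2.36-fold lower and Lyve1 2.01-fold higher. Erythroid markers summed to 2091, 403.0 and 482.5, with Hba-a1 and Slc4a1 below the floor everywhere and Alas2 14.0-fold and 12.4-fold lower. Pancreas acinar markers summed to 1412, 234.5 and 405.6, with Cela2a and Cpa1 below the floor everywhere and Cela1 7.28-fold and 5.51-fold lower. Of 6 markers of T and NK cells, 5 were below the floor everywhere. The part of these cells in the values above was not tested.

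The arrays differed in more than genotype. The 3' over 5' signal ratio of the Gapdh control, a sign of RNA integrity, was 5.81 (430A) and 6.04 (430B) for WT, and between 2.85 and 3.53 on the transgenic arrays. That of the Actb control did not set WT apart, with 2.57 (430A) and 2.29 (430B) in WT against 2.52 and 2.50 in LT, and 17kT lower at 2.13 and 1.72. Fluidics station 2 processed both LT arrays and station 1 the remaining arrays, which means that the station and the LT genotype cannot be told apart. The 17kT samples were numbered apart from the WT and LT samples, and their deposited signals carry more decimal places. Whether they were processed separately was not tested, and such a difference could not be told apart from the 17kT genotype. Between 47.0% and 52.0% of probe sets per array lay above the floor.

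**Figure D5:**
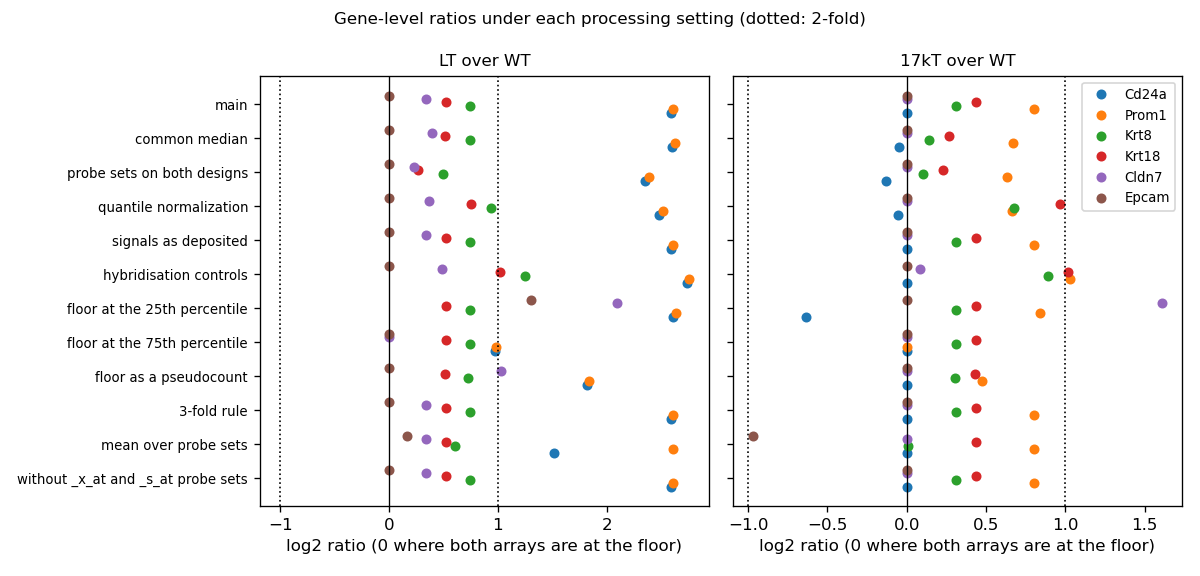
Log2 ratio of 6 genes in LT over WT (left) and 17kT over WT (right) under the settings used and each of 11 alternatives; a value of 0 means that both arrays were at the floor, and dotted lines mark 2-fold. Cd24a and Prom1 stay right of the line in LT over WT except with a floor at the 75th percentile (0.97 and 0.98), whereas Cldn7 crosses it with a lower floor (2.09) or with the floor as a pseudocount (1.03).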

How the data were processed

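RNA of 3 genotypes was hybridised to the 430A and 430B designs, 1 array each. The authors deposited 1 intensity per probe set, in linear units. MAS5 is named in the submitters' processing notes, without a version. The authors had scaled each array, since the 2% trimmed mean was between 250.03 and 250.12. Settings files gave the fluidics station.

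Probe sets with 1 symbol were named from the platform annotation, updated through RefSeq identifiers. Signals were scaled within a design to a common 2% trimmed mean, floored at the median and put on the log2 scale. The probe set brightest on average against the floor stood for its gene, and an _x_at probe set only where there was no other. This gave 18193 genes. Ratios were taken within a design, with Python 3.11.15, numpy 2.4.6 and pandas 2.3.3, and the steps were tested on simulated data.

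The members and lists were chosen with earlier results of these data known. Named genes were all members, up to 3 (pathways) or 2 (cell markers) per list, direction and comparison with the largest ratio past 2-fold, and those closest in pattern to a member. Alcam, Elf3, Slc4a2, Aqp1, Sctr, Cftr, Slc10a2, Muc1, Pkhd1, Krt20, Hes1, Ngp, Ttr, Alb, Cps1 and Hnf4a were named after their values were seen. So were Axl, Tead1 and Ccn2. The 11 alternatives were other scalings, floors, rules of size and choices of probe set. The number of arrays limits the precision.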

Additional observations from a re-analysis of the deposited data

Results flagged for a closer look

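With 1 array per genotype no group had enough samples for an outlier to be sought. On 2 probe sets above the floor on all 3 arrays, LT and 17kT lay on opposite sides of WT. For Krt8 on 1435989_x_at the log2 ratio to WT was 0.75 in LT and -0.29 in 17kT, and the latter ran from -0.49 to 0.29 under 6 scalings. For Epcam on 1447899_x_at it was 0.17 in LT and -0.97 in 17kT, and the former ran from -0.31 to 0.47. In both cases the difference between the transgenic livers was not tested, and the other probe sets of these genes did not show the same opposition above the floor.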

How the results depend on the processing

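The counts of genes of the set past the rule moved with the floor and with scaling to the hybridisation controls. In LT over WT the count higher, 2, became 4 with a floor at the 25th percentile or with scaling to the hybridisation controls, and 0 when the floor was raised to the 75th percentile, and 3 with the floor as a pseudocount. In 17kT over WT the count higher, 0, became 1 with the lower floor and 2 with the hybridisation controls, and the count lower, 0, became 1 with the lower floor (Sox9). In LT over 17kT the count higher, 2, became 0 with the higher floor and 3 with the lower floor or with the mean over probe sets. The cause was not tested beyond the construction of each floor. Of 297 alternative values of single genes, 282 kept their side of the rule, 11 came past it, 4 (Cd24a and Prom1 with the higher floor) fell short of it and 0 of the called ones changed sign. Of 462 alternative list medians, 70 moved by more than the technical SD. No paired analysis was possible because each genotype had 1 array per design. Signal over background limits Krt7, Krt19, Sox9, Cldn7 and the 430A probe set of Epcam.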

Other observations

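Some epithelial genes, picked after their values were seen, had their highest signal in LT and their lowest in 17kT, as on the 430B probe set of Epcam. Cdh1, the adhesion molecule of epithelial cells, read 564.9 in WT, 642.4 in LT and 184.8 in 17kT, and was 3.06-fold lower in 17kT than in WT and 3.48-fold higher in LT than in 17kT. Cgn, which encodes the tight junction protein cingulin, read 1346, 1929 and 711.2 and was 2.71-fold higher in LT than in 17kT. Met read 2208, 3171 and 1296, and Lgr5, a Wnt-responsive receptor gene of pericentral hepatocytes and progenitor cells, read 197.1, 266.5 and 54.9. Cdh1 alone of these 4 passed the rule in 17kT over WT, with log2 ratios of -0.92 for Cgn and -0.77 for Met, and for Lgr5 a signal below the floor in 17kT. In LT over WT the ratios were 0.19, 0.52, 0.52 and 0.44 in the order named. Other junction genes ran differently, with F11r (247.9, 665.6 and 1035), Tjp1 (401.8, 724.1 and 880.9), Marveld2 (111.1, 162.7 and 194.4) and Jup (141.4, 136.6 and 229.6) highest in 17kT. Cgn, Met and Lgr5 were read on the 430B design, as was this Epcam probe set, and Cdh1 on 430A. The median offset of log2 ratios between designs (430A minus 430B) was -0.36 for LT over 17kT over the 100 shared probe sets, so that 430B ratios ran higher in this comparison. They also ran higher in LT over WT (offset -0.25) and ran lower in 17kT over WT (offset 0.19).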
